A study of Mus musculus with 12 samples.

Results

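The genes described here form the cellular stress response that handles oxidants, metals and misfolded proteins in macrophages: genes of the NRF2 pathway, metallothioneins and ferritins, and heat shock chaperones, with 3 further antioxidant enzymes. The list held 38 genes, and probes were taken by the gene name in the array files or an older alias of it (Mod1 for Me1, Hsp110 for Hsph1). On this array 37 of the 38 had a probe, 68 probes in all, out of 16743 genes and 41174 probes measured. No probe carried the name Hspa1b, the near-identical neighbour of Hspa1a, so values given for Hspa1a are uncertain between the pair.

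RNA came from thioglycollate-elicited peritoneal macrophages of female mice aged 10 weeks, harvested 96 h after the injection. The cells of every group were loaded overnight with cholesterol (10 µg/ml) and then moved to medium with polymyxin B (25 µg/ml), an antibiotic that binds endotoxin. Apolipoprotein A-I (apoA-I), which carries cholesterol away from cells as part of high density lipoprotein, was given at 10 µg/ml for 2 h, and controls went without it. A pre-incubation of 30 min is recorded with the apoA-I step and not for controls, apart from the conflicting texts of replicate 2 described below. Cells were from C57BL/6 mice, called MyD88 +/+ in the design, or from mice without MyD88, the adaptor through which most Toll-like receptors signal, and 3 replicate experiments each gave 1 array for each of the 4 combinations. In replicate 2, the free text of the C57BL/6 control and that of the apoA-I array of MyD88-null cells contradict the titles on whether apoA-I was added; titles and source names were followed. Nothing in the labels says whether the RNA of an array came from 1 mouse or from a pool. Unless a block is named, the p-values measure the spread between the 3 arrays of a group, and arrays are treated as independent. Those with the experiment as a block measure the spread left once the part shared within an experiment is removed.

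In resting cells the transcription factor NRF2 (gene Nfe2l2) is held in the cytoplasm and marked for degradation by KEAP1; oxidants and electrophiles free it, and it then binds antioxidant response elements with small MAF proteins and raises genes for glutathione synthesis, thioredoxin recycling and NADPH supply. BACH1 occupies the same elements as a repressor, and the autophagy receptor p62 (gene Sqstm1) can draw KEAP1 away from NRF2. Metallothioneins bind zinc and copper and are raised through metal response elements by MTF1, while heat shock elements bind HSF1, which raises chaperones when proteins misfold.

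Signals are log2 of the processed spot intensity relative to the 75th percentile of the same array, so 0 is that percentile and a difference of 1 is a doubling; levels of different genes were not compared. Before scaling, that percentile was lowest (199.5) on the MyD88-null array with apoA-I of experiment 1 and highest (1408) on the C57BL/6 control of experiment 3. Between 57.6% and 73.6% of probes were well above background, and the former array, which stands apart, had the highest share. All 37 genes were above background on all 12 arrays with the probe used. Myd88 itself ran from 2.96 to 4.30 on the C57BL/6 arrays and from 1.40 to 3.25 on the MyD88-null arrays, lower in MyD88-null cells in each of the 6 pairs of 1 experiment (adjusted p = 0.0529 averaged over treatments, 0.000937 with the experiment as a block); whether its probe lies in the deleted part was not tested. All 8 macrophage markers were above background on all 12 arrays, and so were 5 of 6 B cell, 6 of 6 mast cell, 5 of 5 T cell and 10 of 10 mesothelial and fibroblast markers. Fewer cells of a type and less RNA per cell cannot be told apart in such bulk samples.

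With apoA-I, averaged over the genotypes, 4 of the 37 genes rose and none fell: Sod2 by 2.53-fold, Mt2 by 2.25-fold, Sqstm1 by 1.84-fold and Txnrd1 by 1.81-fold. These are 10.8% of the genes described, against 3.15% of all genes tested (limma, adjusted p under 0.05). Within a single genotype the test called none of them in C57BL/6 cells, where 0.830% of all genes passed, and Sod2 alone in MyD88-null cells, where 1.14% did. With the experiment as a block, which removes what the 4 arrays of an experiment share, 8 genes passed in the average (11.5% of all genes): Slc7a11, Mt1 and Hspa1a rose too, and Slc30a1 fell. The same blocked fit called Txnrd1, Sqstm1, Mt1 and Mt2 in C57BL/6 cells (3.40% of all genes) and Txnrd1, Sqstm1, Mt2 and Sod2 in MyD88-null cells (4.07%).

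The genes did not move as 1 group. In the average of both genotypes their median log2 change was -0.00, against 0.05 over all genes, with a range from -0.69 for Slc30a1 to 1.56 for Slc7a11. At an unadjusted p under 0.05, 8 genes passed in C57BL/6 cells (all genes 7.42%), 7 in MyD88-null cells (8.67%) and 10 in the average (13.2%). All 3 apoA-I arrays lay above all 3 control arrays for 9 genes in C57BL/6 cells (24.3%, all genes 6.77%) and for 6 genes in MyD88-null cells (16.2%, all genes 6.29%); they lay below for 5 genes in C57BL/6 cells (13.5%, all genes 6.35%) and for none in MyD88-null cells. Of the 37 genes 11 were higher with apoA-I in all 6 pairs of control and apoA-I arrays of 1 experiment (29.7%, all genes 11.6%), and Gclm, Gclc, Slc30a1 and Cat were lower in all 6 (10.8%, all genes 12.0%).

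Markers of cell types were read beside this response. Of 8 macrophage markers 1 rose with apoA-I in the average, Cd14 (log2 1.31, adjusted p = 0.0308), and no marker of another type passed; with the block Cd3e and Lck of the 5 T cell markers and Zbtb46 of the dendritic cell markers passed, all higher. The log2 of the summed T cell markers ran from -0.45 to 0.68 on control arrays and from -0.09 to 1.38 on apoA-I arrays. All 10 mesothelial and fibroblast markers were above 0 (median 0.26), with summed levels of 5.79 to 7.87 on control and 6.05 to 7.97 on apoA-I arrays. The part of these cells in the response was not tested.

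**Figure D1:**
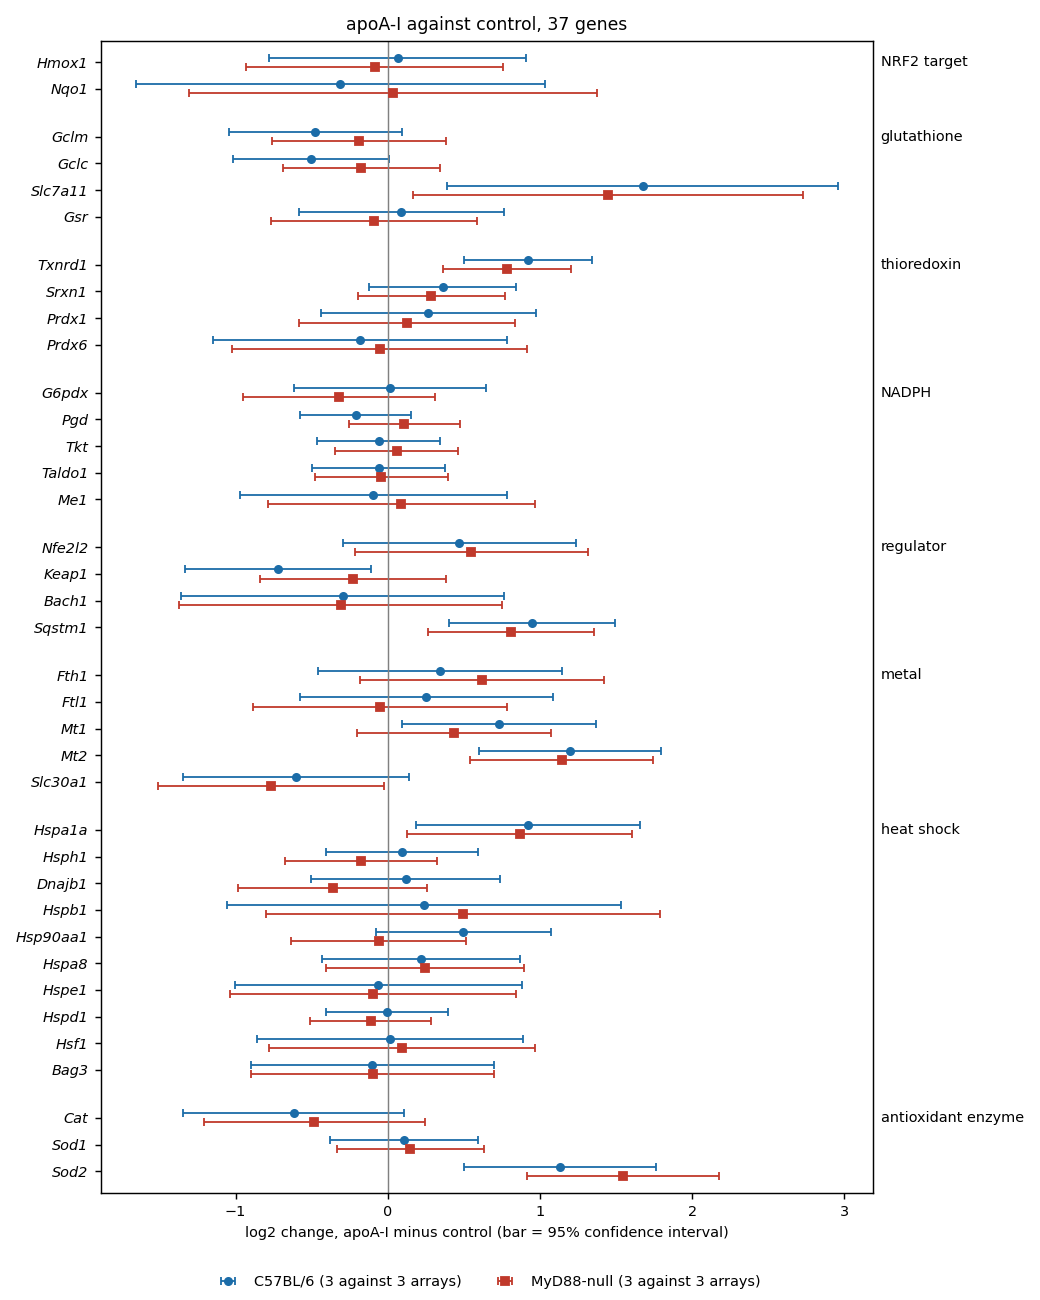
Log2 change with apoA-I (x axis, apoA-I minus control) for the 37 genes, grouped by role; blue circles are C57BL/6 cells and red squares MyD88-null cells, 3 against 3 arrays each, and bars are 95% confidence intervals. Sod2, Mt2, Sqstm1, Txnrd1, Slc7a11 and Hspa1a stand to the right of 0 in both genotypes with intervals that leave 0 out, and most other intervals cross it.

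Among the regulators of the pathway, the gene that rose was Sqstm1, which encodes p62 (probe at chr11:50156925-50156984, mm7, minus strand). In C57BL/6 cells Sqstm1 stood at 8.26, 8.42 and 7.58 in the controls of experiments 1, 2 and 3, and at 9.13, 8.98 and 8.98 with apoA-I. MyD88-null controls had 7.71, 7.97 and 7.54, and 8.46, 8.78 and 8.39 with apoA-I. Within each genotype every apoA-I array was above every control array. The log2 changes were 0.95 and 0.81 (SE 0.25 each), and 0.88 (SE 0.17) in the average, with an adjusted p of 0.0236 by limma; leaving out 1 array at a time, this p ran from 0.0317 to 0.0675 and missed the threshold in 5 of 12 fits (without C57BL/6 apoA-I replicate 1 or 2, MyD88-null control replicate 1 or 3, or MyD88-null apoA-I replicate 2).

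Nfe2l2, which encodes NRF2 itself, was measured at 5.32, 5.61 and 5.52 in C57BL/6 controls against 5.64, 6.22 and 6.00 with apoA-I. The MyD88-null values were 4.76, 5.31 and 5.49 in controls against 4.94, 6.01 and 6.26 with apoA-I. It was higher with apoA-I in 6 of 6 pairs, by 0.17 to 0.77 on the log2 scale, but the spread between experiments was as large as the change: the averaged difference of 0.51 (SE 0.24) had an adjusted p of 0.422 (0.0644 with the block). All 4 probes of Nfe2l2 gave an averaged difference above 0, from 0.51 to 0.78.

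Keap1, the inhibitor of NRF2, stood at 3.68, 3.76 and 3.60 in C57BL/6 controls against 2.97, 2.71 and 3.19 with apoA-I, so all 3 treated arrays were below all 3 controls. MyD88-null cells gave 3.74, 3.69 and 3.31 in controls against 3.96, 3.15 and 2.94 with apoA-I, and the groups overlapped. The log2 differences of -0.72 (SE 0.27) and -0.23 (SE 0.27) had adjusted p-values of 0.501 and 0.848. For the repressor gene Bach1 the C57BL/6 arrays gave 1.78, 1.84 and 1.61 in controls against 1.42, 1.38 and 1.55 with apoA-I, without overlap. Its MyD88-null arrays were set apart by experiment more than by treatment: 2.06 and 2.19 (control and apoA-I) in experiment 1, 1.32 and 0.75 in experiment 2, and 0.67 and 0.18 in experiment 3. The averaged difference of Bach1 was -0.30 (SE 0.34).

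The 2 genes most used as readouts of NRF2, the haem-degrading enzyme gene Hmox1 and the quinone reductase gene Nqo1, gave no call. Hmox1 stood at 6.43, 6.22 and 5.48 in C57BL/6 controls against 6.41, 6.30 and 5.61 with apoA-I. MyD88-null cells gave 5.89, 6.36 and 5.22 in controls against 5.52, 6.21 and 5.48 with apoA-I. Its averaged difference was -0.01, with a 95% confidence interval from -0.61 to 0.59, so a rise of more than 1.50-fold lies outside the interval. Experiments differed more than treatments did: the lowest Hmox1 values were those of experiment 3 in all 4 groups.

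Nqo1 differed between experiments within C57BL/6 cells. It stood at 1.85 and 1.37 (control and apoA-I) in experiment 1, at 0.24 and -0.18 in experiment 2, and at -0.24 and -0.27 in experiment 3. The MyD88-null arrays of experiment 1 were instead the lowest, at -1.02 and -0.86, with 0.16 and -0.16 in experiment 2 and -0.26 and 0.01 in experiment 3. The log2 changes with apoA-I were -0.31 (SE 0.60) and 0.03 (SE 0.60), so the C57BL/6 array pair of experiment 1 sets much of the error of this gene.

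Glutathione synthesis starts from cystine, which enters through the exchanger encoded by Slc7a11, and its first step is made by glutamate-cysteine ligase, with the catalytic subunit Gclc and the modifier subunit Gclm; glutathione reductase (Gsr) recycles the oxidised form. These 4 genes did not move together. Slc7a11 stood at 1.06, 0.44 and -0.02 in C57BL/6 controls against 2.39, 2.34 and 1.77 with apoA-I. MyD88-null controls gave -1.86, -1.59 and -0.83, and the apoA-I arrays -1.41, 1.11 and 0.36. It was higher with apoA-I in 6 of 6 pairs, without overlap in C57BL/6 cells, while in MyD88-null cells the pairs differed by 0.45, 2.70 and 1.19. The averaged difference of 1.56 (SE 0.41, 2.95-fold) had an adjusted p of 0.0797, and 0.0450 with the experiment as a block; without MyD88-null apoA-I replicate 1 the adjusted p was 0.00717, and in the other 11 fits that left out 1 array it missed the threshold, up to 0.202.

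The array carries 4 probes named Slc7a11. Besides the probe used, which lies at chr3:50490342-50490401 (mm7, minus strand, as for all 4), probes at chr3:50490980-50491039 and chr3:50496689-50496748 carry the same RefSeq identifier, NM_011990, and another at chr3:50567425-50567484 is annotated to the cDNA AK089283. Tested probe by probe over all kept probes, the averaged log2 differences of the 3 NM_011990 probes were 1.56, 1.31 and 1.83 in that order, with adjusted p-values of 0.0792, 0.0778 and 0.0205. The AK089283 probe stood at -2.58, -3.75 and -2.34 in C57BL/6 controls against 0.13, -0.74 and 1.21 with apoA-I, and in MyD88-null cells at -5.69, -6.59 and -3.96 in controls against 0.52, -1.80 and -1.64 with apoA-I. It was well above background on 1 of 3 MyD88-null control arrays and on all 9 other arrays, so its change in MyD88-null cells, and an average with it, were not measured exactly and are not given; in C57BL/6 cells it was 3.09 (SE 0.82, adjusted p = 0.189). Its apoA-I arrays lay above its control arrays in both genotypes, and the array of experiment 1 was the highest of the 3 MyD88-null apoA-I arrays on this probe, while on each of the 3 NM_011990 probes it was the lowest. Which exons or transcripts the probes lie in was not analysed here.

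**Figure D2:**
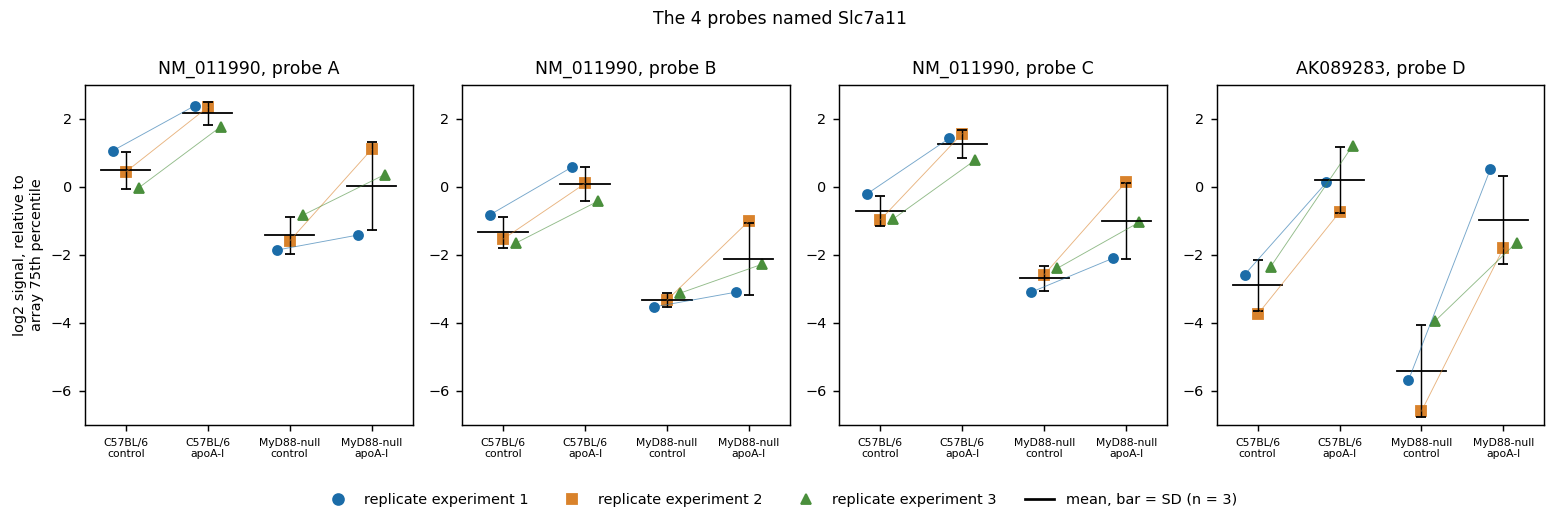
Signal of the 4 Slc7a11 probes, A to C in the order of position and D the AK089283 probe, in the 4 groups (y axis, log2 with the 75th percentile of each array at 0); symbols mark the replicate experiment, lines join control and apoA-I arrays of 1 experiment, and bars give mean and SD of 3 arrays. On all 4 probes the lines slope upward; on probe D 2 of the 3 MyD88-null control points were not well above background.

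The ligase genes differed in the other direction without passing the test. Gclm stood at 0.63, 0.23 and 0.52 in C57BL/6 controls against -0.04, -0.17 and 0.15 with apoA-I; the MyD88-null values were -0.92, -0.32 and -0.94 in controls against -1.25, -0.51 and -0.99 with apoA-I. Gclc stood at 2.07, 2.01 and 2.57 in C57BL/6 controls against 1.81, 1.42 and 1.91 with apoA-I, and at 1.69, 1.77 and 1.45 in MyD88-null controls against 1.45, 1.70 and 1.25 with apoA-I. Both were lower with apoA-I in 6 of 6 pairs, with no overlap in C57BL/6 cells and overlap in MyD88-null cells. The averaged differences were -0.33 (SE 0.18) for Gclm and -0.34 (SE 0.16) for Gclc, with adjusted p-values of 0.511 and 0.425 and, with the block, 0.253 and 0.210. Gsr had an averaged difference of -0.00 (SE 0.21).

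The thioredoxin arm is represented by thioredoxin reductase 1 (Txnrd1), sulfiredoxin (Srxn1), which repairs over-oxidised peroxiredoxins, and the peroxiredoxins Prdx1 and Prdx6. Txnrd1 (probe at chr10:82438991-82439050, mm7, plus strand) stood at 5.82, 5.88 and 5.91 in C57BL/6 controls against 6.71, 6.87 and 6.80 with apoA-I. MyD88-null cells had 5.43, 5.85 and 5.58 in controls against 6.14, 6.60 and 6.46 with apoA-I. All 6 apoA-I arrays were above all 6 control arrays, whatever the genotype, which held for Txnrd1 and Mt2 among the 37 genes (5.41%, all genes 2.08%). The log2 changes were 0.92 and 0.78 (SE 0.19 each) and 0.85 (SE 0.13) in the average, with an adjusted p of 0.00676 by limma, and the average kept its call in 12 of 12 fits that left out 1 array.

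Srxn1 differed by less: it was 6.53, 6.47 and 6.09 in C57BL/6 controls against 6.93, 6.69 and 6.56 with apoA-I, and 6.24, 6.27 and 5.85 in MyD88-null controls against 6.27, 6.66 and 6.29 with apoA-I. On the probe used, it was higher in 6 of 6 pairs, and apoA-I and control arrays of a genotype did not overlap. The averaged difference was 0.32 (SE 0.15), with an adjusted p of 0.412 (0.0913 with the block). Other Srxn1 probes gave log2 changes of 0.52 and 0.49 in C57BL/6 cells. In MyD88-null cells these probes gave -0.03 and -0.14, against 0.29 for the probe used, so a rise there was not seen on every probe. Prdx1 and Prdx6 had averaged differences of 0.20 (SE 0.23) and -0.12 (SE 0.31).

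Each of the 3 RefSeq promoter windows of Txnrd1 was searched on both strands, in the 250 bases before the start, for the antioxidant response element core TGACNNNGC. One of the 3 holds it, and it is printed here because Txnrd1 is the NRF2 target gene with the smallest adjusted p: chr10:82858956-82859205 (GRCm38.p6, plus strand), with the match, which lies on the minus strand, in capitals.
Txnrd1: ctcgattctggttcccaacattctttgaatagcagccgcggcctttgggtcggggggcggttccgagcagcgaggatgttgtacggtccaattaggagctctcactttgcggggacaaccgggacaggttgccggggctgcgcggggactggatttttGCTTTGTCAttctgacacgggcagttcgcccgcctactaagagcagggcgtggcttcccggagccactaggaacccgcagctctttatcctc
The same core was found in 11 of 39 windows of the genes described (28.2%) and in 10.2% of all 32851 windows. No match was found in the windows of Sqstm1, Slc7a11 or Sod2, nor in those of the NRF2 pathway genes Nqo1, Srxn1 and Me1. The windows of Gclm, G6pdx, Nfe2l2, Prdx1, Mt2, Slc30a1 and Sod1 each hold 1. Heat shock genes hold it too: Dnajb1 has 1 match in 1 of its 2 windows. Hsph1 has 2 matches in each of 2 overlapping windows, which both count among the 11. By gene, 10 of 31 hold the core. Of the 38 genes 31 have a window in this table; Hmox1, Gclc, Prdx6, Gsr, Hsp90aa1, Hspa8 and Hsf1 do not. A match is a run of letters, not a measured binding site.

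**Figure D3:**
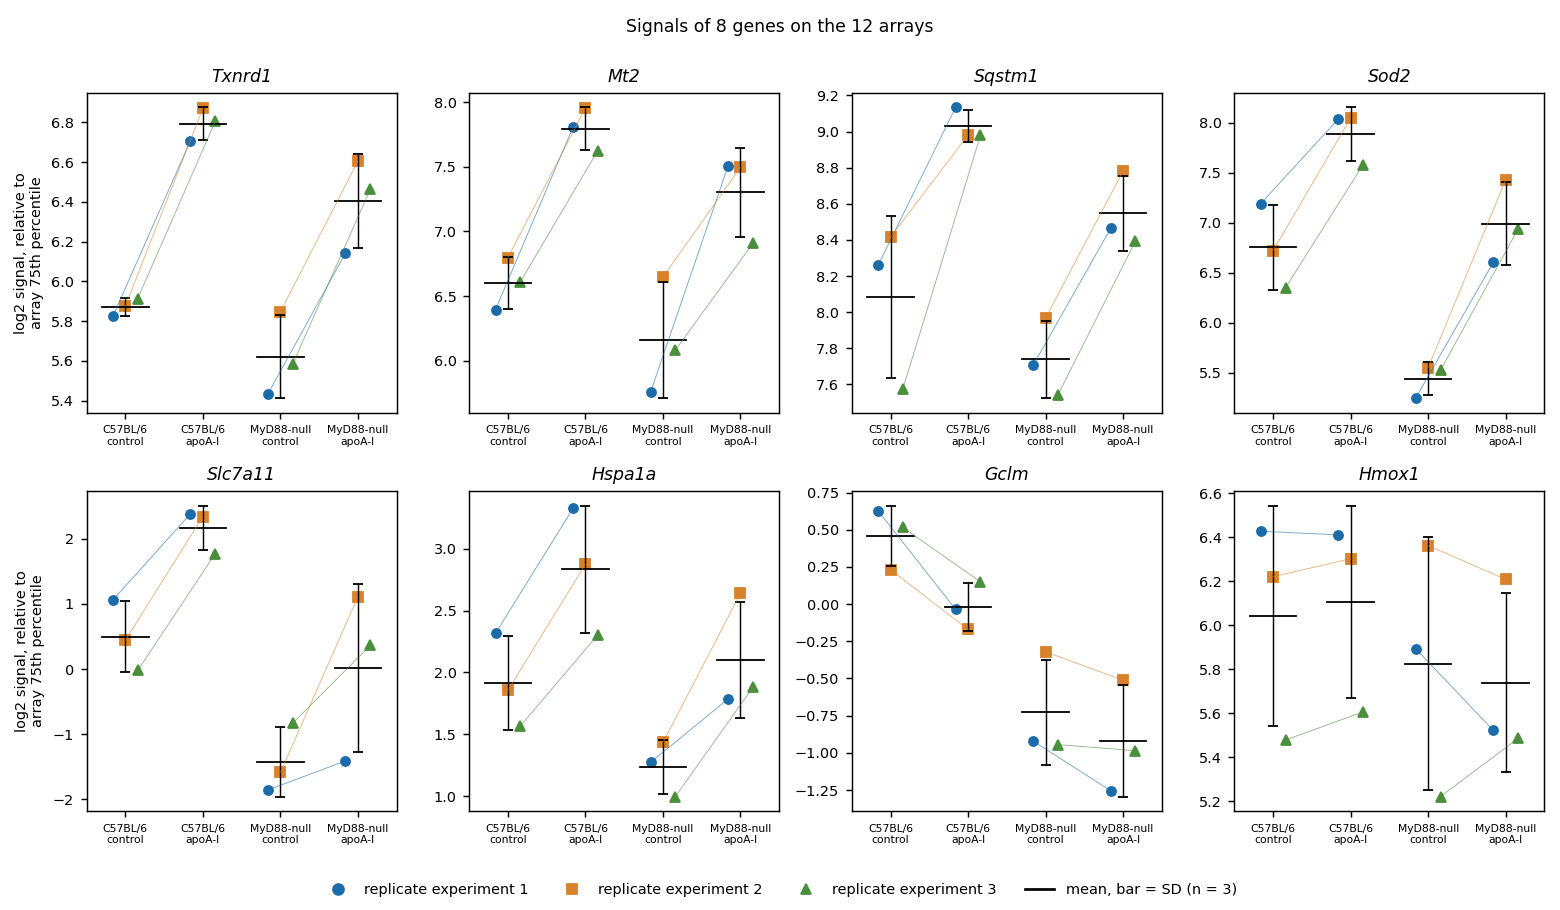
Signal of 8 genes in the 4 groups (x axis); the y axis, with a scale of its own in each panel, is log2 with the 75th percentile of each array at 0; symbols mark the replicate experiment, lines join control and apoA-I arrays of 1 experiment, and bars give mean and SD of 3 arrays. Every line slopes upward for Txnrd1, Mt2, Sqstm1, Sod2, Slc7a11 and Hspa1a, every line slopes downward for Gclm, and the lines of Hmox1 go both ways.

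The 5 genes that supply NADPH, the electron source of both systems, differed little. They are glucose-6-phosphate dehydrogenase (G6pdx), phosphogluconate dehydrogenase (Pgd), transketolase (Tkt), transaldolase (Taldo1) and malic enzyme (Me1). Their averaged differences with apoA-I lay between -0.15 and -0.00. Pgd was 5.96, 5.96 and 5.78 in C57BL/6 controls against 5.80, 5.64 and 5.63 with apoA-I, and 5.41, 5.65 and 5.43 in MyD88-null controls against 5.65, 5.62 and 5.54 with apoA-I. Me1 was -1.41, -1.08 and -1.03 in C57BL/6 controls against -1.65, -1.14 and -1.01 with apoA-I, and -2.53, -1.46 and -1.93 in MyD88-null controls against -2.74, -1.59 and -1.32 with apoA-I. Control and apoA-I arrays of these 2 genes overlapped in both genotypes.

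Of the metal genes, the metallothionein Mt2 rose (probe at chr8:92762515-92762574, mm7, plus strand). It stood at 6.40, 6.80 and 6.61 in C57BL/6 controls against 7.81, 7.95 and 7.63 with apoA-I. MyD88-null controls gave 5.76, 6.65 and 6.08, and apoA-I arrays 7.51, 7.50 and 6.91. As for Txnrd1, the lowest apoA-I array was above the highest control array of either genotype. The log2 changes were 1.20 and 1.14 (SE 0.27 each) and 1.17 (SE 0.19) in the average, with an adjusted p of 0.00834, which stayed under the threshold in 12 of 12 fits that left out 1 array.

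Its neighbour Mt1 was 5.45, 5.64 and 4.87 in C57BL/6 controls against 6.14, 6.36 and 5.65 with apoA-I, and 5.24, 5.50 and 4.98 in MyD88-null controls against 5.87, 5.85 and 5.30 with apoA-I. It was higher with apoA-I in 6 of 6 pairs, by 0.32 to 0.79, while the levels of the 3 experiments differed. The averaged difference of 0.58 (SE 0.20) had an adjusted p of 0.215, and 0.00608 once the experiment was a block. A second Mt1 probe, annotated to BC027262, gave an averaged difference of 0.03 (SE 0.68). The 2 metallothioneins are close in sequence, and their probes were not tested for cross-hybridisation.

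Slc30a1, which encodes the zinc exporter ZnT1 and is, like the metallothioneins, a target of MTF1, was lower with apoA-I. It stood at 4.28, 3.71 and 4.15 in C57BL/6 controls against 3.98, 2.94 and 3.41 with apoA-I, and at 4.85, 4.16 and 4.68 in MyD88-null controls against 3.71, 3.41 and 4.27 with apoA-I. Control and apoA-I arrays overlapped in both genotypes, and the apoA-I array was the lower of the pair in 6 of 6 pairs. The averaged difference was -0.69 (SE 0.24), with an adjusted p of 0.209 (0.0192 with the block), and a second probe gave -0.97 (SE 0.30).

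The metal response element core TGCNCNC was searched in the same windows. It is a short core, found in 44.4% of all windows, and 5 or more matches were found in 0.344% of them. The windows of these 3 genes are printed because the metallothioneins and Slc30a1 share a regulator and differed in direction; matches on either strand are in capitals. They are chr8:94172368-94172617 for Mt2, chr8:94178839-94179088 for Mt1 and chr1:191906531-191906780 for Slc30a1 (GRCm38.p6, all plus strand).
Mt2: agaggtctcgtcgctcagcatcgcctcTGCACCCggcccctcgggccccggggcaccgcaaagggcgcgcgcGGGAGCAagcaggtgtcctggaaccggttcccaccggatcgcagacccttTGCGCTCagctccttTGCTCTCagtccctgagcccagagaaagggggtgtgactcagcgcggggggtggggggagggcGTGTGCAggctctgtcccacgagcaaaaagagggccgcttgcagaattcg
Mt1: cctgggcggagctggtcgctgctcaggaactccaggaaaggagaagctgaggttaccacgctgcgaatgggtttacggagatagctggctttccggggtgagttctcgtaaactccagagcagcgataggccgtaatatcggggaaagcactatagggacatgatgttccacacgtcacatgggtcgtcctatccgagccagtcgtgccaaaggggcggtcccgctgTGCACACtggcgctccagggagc
Slc30a1: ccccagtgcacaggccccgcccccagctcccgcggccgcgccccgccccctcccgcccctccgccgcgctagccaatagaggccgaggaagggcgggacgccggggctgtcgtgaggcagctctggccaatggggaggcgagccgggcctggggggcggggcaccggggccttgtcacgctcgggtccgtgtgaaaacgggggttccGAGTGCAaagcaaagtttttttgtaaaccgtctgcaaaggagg
Mt2 has 5 matches in these 250 bases, and Mt1 and Slc30a1 have 1 each. The counts depend on where the annotated start lies. Elements outside the printed windows were not searched, so they are not counts for whole promoters.

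The ferritin genes, which encode the heavy (Fth1) and light (Ftl1) chains of the iron store, gave no call. Fth1 was 9.66, 9.25 and 8.93 in C57BL/6 controls against 9.74, 9.24 and 9.90 with apoA-I, and 9.68, 8.74 and 9.16 in MyD88-null controls against 10.50, 9.41 and 9.54 with apoA-I. Ftl1 was 9.60, 9.55 and 8.42 in C57BL/6 controls against 9.63, 9.64 and 9.06 with apoA-I, and 9.87, 9.66 and 8.87 in MyD88-null controls against 9.48, 9.65 and 9.12 with apoA-I. Control and apoA-I arrays overlapped in both genotypes for both genes. Their averaged differences were 0.48 (SE 0.26) and 0.10 (SE 0.26), and the Fth1 spot was saturated on 1 C57BL/6 control array and 1 MyD88-null apoA-I array, which bounds those values from below.

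Among the heat shock genes Hspa1a, the stress-inducible Hsp70, had the largest difference. It stood at 2.32, 1.86 and 1.57 in C57BL/6 controls against 3.33, 2.87 and 2.30 with apoA-I. MyD88-null cells gave 1.27, 1.43 and 1.00 in controls against 1.79, 2.64 and 1.88 with apoA-I. It was higher with apoA-I in 6 of 6 pairs; the apoA-I arrays cleared the controls in MyD88-null cells, and in C57BL/6 cells they overlapped by 1 array. The averaged difference of 0.89 (SE 0.23, 1.86-fold) had an adjusted p of 0.0800 by limma and 0.0174 with the block. All 4 Hspa1a probes gave averaged differences of 0.89 to 0.97.

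The other 9 heat shock genes measured had averaged differences from -0.12 to 0.37, and none passed. Hsp90aa1, the inducible Hsp90, was 5.66, 5.61 and 6.01 in C57BL/6 controls against 6.04, 6.12 and 6.62 with apoA-I, without overlap, and 5.64, 5.97 and 6.11 in MyD88-null controls against 5.59, 5.67 and 6.28 with apoA-I, with overlap. Dnajb1, the Hsp40 partner of Hsp70, was 3.92, 3.86 and 3.63 in C57BL/6 controls against 3.81, 3.77 and 4.19 with apoA-I, and 3.79, 4.09 and 4.33 in MyD88-null controls against 3.23, 3.62 and 4.27 with apoA-I. Hsph1, the Hsp110 exchange factor, was 3.22, 3.35 and 3.40 in C57BL/6 controls against 3.31, 3.21 and 3.73 with apoA-I, and 3.27, 3.78 and 3.68 in MyD88-null controls against 3.21, 3.29 and 3.69 with apoA-I.

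Dnajb1 and Hsph1, which HSF1 raises together with Hspa1a after heat, had averaged differences of -0.12 (SE 0.20) and -0.04 (SE 0.16), with groups that overlapped in both genotypes. Hsf1 itself was 5.54, 5.38 and 4.56 in C57BL/6 controls against 5.55, 5.73 and 4.25 with apoA-I, and 5.63, 5.16 and 5.53 in MyD88-null controls against 5.62, 5.58 and 5.40 with apoA-I. Its averaged difference was 0.05 (SE 0.28). The small heat shock protein gene Hspb1 (0.37, SE 0.41) and the constitutive Hsp70 gene Hspa8 (0.23, SE 0.21) were higher in 6 of 6 pairs by amounts within the spread. A second Hspa8 probe gave an averaged difference of -0.01, with 0.40 in C57BL/6 and -0.43 in MyD88-null cells. The mitochondrial chaperonins Hspd1 and Hspe1 and the cochaperone Bag3 had averaged differences between -0.10 and -0.06.

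The Hspa1a window, shown as that of the heat shock gene with the largest change, lies at chr17:34972157-34972406 (GRCm38.p6, minus strand), with its match to the heat shock element core GAANNTTC in capitals.
Hspa1a: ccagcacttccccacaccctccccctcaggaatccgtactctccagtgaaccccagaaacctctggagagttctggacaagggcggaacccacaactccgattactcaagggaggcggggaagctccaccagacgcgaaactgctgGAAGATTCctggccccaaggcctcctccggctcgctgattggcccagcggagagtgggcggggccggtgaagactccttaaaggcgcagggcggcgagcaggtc
This core was found in 6.69% of all windows, and the other arrangement, TTCNNGAA, in 7.17%; the Hspa1b window also holds 1 GAANNTTC.

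Of the remaining antioxidant enzymes, the mitochondrial manganese superoxide dismutase Sod2 had the smallest adjusted p of the 37 genes in the averaged response (probe at chr17:11746836-11746895, mm7, minus strand). It stood at 7.19, 6.72 and 6.35 in C57BL/6 controls against 8.04, 8.05 and 7.58 with apoA-I. MyD88-null controls gave 5.25, 5.55 and 5.53, and apoA-I arrays 6.60, 7.43 and 6.94. Within each genotype the 3 apoA-I arrays were above the 3 controls, and the MyD88-null apoA-I arrays overlapped the C57BL/6 controls. The log2 change was 1.13 (SE 0.28, adjusted p = 0.152) in C57BL/6 cells and 1.55 (SE 0.28, adjusted p = 0.0284) in MyD88-null cells, and 1.34 (SE 0.20, adjusted p = 0.00488) in the average. The average passed in 12 of 12 fits that left out 1 array; the call in MyD88-null cells alone was lost in 7 of 12, with adjusted p-values of 0.0260 to 0.135 (lost without C57BL/6 control replicate 2, C57BL/6 apoA-I replicate 2, any MyD88-null control, or MyD88-null apoA-I replicate 2 or 3). Sod1, the cytosolic copper-zinc enzyme, had an averaged difference of 0.13 (SE 0.15), and catalase (Cat) of -0.55 (SE 0.23, adjusted p = 0.331); in experiment 1 Cat was lower by 1.18 in C57BL/6 and by 1.17 in MyD88-null cells, and in the other experiments by 0.10 to 0.41.

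The arrays were scanned on 3 days, and the MyD88-null pairs of experiments 1 and 2 were split between days. Within the days that held both control and apoA-I arrays of a genotype, the log2 difference ran from 0.30 to 1.17 for Txnrd1, 0.83 to 1.74 for Mt2, 0.50 to 1.40 for Sqstm1 and 1.05 to 2.18 for Sod2. On the first 2 days the MyD88-null differences set a control array of 1 experiment against an apoA-I array of another, so they also hold the difference between experiments. With the scan day as a block 7 genes passed in the average, and 1261 of all 16743 genes. Without both arrays whose descriptions conflict, 1 gene described here passed in the average, Sod2 (log2 1.22, adjusted p = 0.0479), and 185 of all 16743 genes. The differences of Txnrd1, Mt2 and Sqstm1 were then 0.80, 1.17 and 0.90 with adjusted p-values of 0.0697, 0.0653 and 0.0844. Scaling by the array median in place of the 75th percentile moved the median change of all genes in MyD88-null cells from 0.05 to -0.40 (average of both genotypes -0.21), and no gene described here passed on that scale, where the averaged differences of Sod2, Mt2, Sqstm1 and Txnrd1 were 1.08, 0.91, 0.62 and 0.60.

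The response to apoA-I was compared between genotypes by the interaction term, which asks whether the change depends on MyD88. It called 0 of the 37 genes and 0% of all genes, and at an unadjusted p under 0.05 it held 0 of the 37 against 196 of all genes (1.17%). The differences of the responses (MyD88-null minus C57BL/6) ran from -0.55 for Hsp90aa1 to 0.49 for Keap1. They were -0.14 (95% confidence interval -0.74 to 0.45) for Txnrd1, -0.05 (-0.90 to 0.79) for Mt2, -0.14 (-0.91 to 0.63) for Sqstm1 and 0.41 (-0.48 to 1.30) for Sod2. For these 4 genes the intervals leave room for responses that differ by up to 1.30 on the log2 scale, and for Slc7a11 (-0.23, -2.04 to 1.59) by more, so equal responses are not shown.

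Levels in MyD88-null cells were compared with C57BL/6 cells next. No gene passed in control cells (0.0956% of all genes did), with apoA-I (0.0657%) or averaged over treatments (0.263%). Averaged over treatments, the median log2 difference of the 37 genes was -0.24, against 0.03 for all genes, and 12 of 37 genes (32.4%) lay above 0, against 54.7% of all genes. At an unadjusted p under 0.05 and lower in MyD88-null cells there were 5 genes in controls (13.5%, all genes 2.34%), 3 with apoA-I (8.11%, all genes 1.73%) and 10 in the average (27.0%, all genes 3.35%); none was higher at that threshold.

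All 3 MyD88-null arrays lay below all 3 C57BL/6 arrays for 9 genes in controls (24.3%, all genes 3.48%) and for 7 genes with apoA-I (18.9%, all genes 2.41%). Gclm, Txnrd1, Srxn1, Slc7a11, Prdx6, Pgd, Me1, Sqstm1, Mt2, Hspa1a and Sod2 were lower in MyD88-null cells in all 6 pairs of 1 experiment (29.7%, all genes 5.31%), and none was higher in all 6. With the experiment as a block, Gclm, Slc7a11 and Sod2 passed in the average, all lower (8.11%, all genes 2.13%).

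From the array values given above, Gclm was the gene of the 37 for which all 6 MyD88-null arrays lay below all 6 C57BL/6 arrays (2.70%, all genes 0.311%). Its difference averaged over treatments was -1.04 (SE 0.18, adjusted p = 0.0536, and 0.0252 with the block), a level 2.06-fold lower. Slc7a11 was 4.10-fold lower (log2 -2.03, SE 0.41, adjusted p = 0.101, and 0.0487 with the block), by 0.81 to 3.80 in the 6 pairs, most in experiment 1. Tested probe by probe without the block, the other NM_011990 probes of Slc7a11 differed by -2.10 and -2.12, with adjusted p-values of 0.0487 and 0.0571. Sod2 was 2.15-fold lower (log2 -1.11, SE 0.20, adjusted p = 0.0645, and 0.0245 with the block), by 0.62 to 1.94 in the 6 pairs.

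Experiment 1 carried most of the difference for some genes. Nqo1 was lower in MyD88-null cells by 2.87 in controls against 2.22 with apoA-I in experiment 1, and within -0.07 to 0.28 in the other experiments. Prdx6, at 4.90 and 4.62 on the C57BL/6 arrays of experiment 1 and 3.23 to 3.60 on the other C57BL/6 arrays, was lower by 1.94 and 1.63 in experiment 1 and by 0.16 to 0.26 otherwise. The averaged differences of Nqo1 and Prdx6 were -0.81 (SE 0.43) and -0.73 (SE 0.31), with adjusted p-values of 0.819 and 0.653.

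Markers of cell types were read beside these differences. All 6 B cell markers were lower in MyD88-null cells on average (median log2 -0.58), and Ms4a1 and Blk passed with the block; the log2 of their summed level ran from 2.93 to 3.18 on C57BL/6 arrays and from 2.07 to 2.90 on MyD88-null arrays. Of the 6 mast cell markers 4 were lower and 2 higher, with a median of -0.67, and Tpsb2 passed with the block; their summed level was 2.13 to 2.69 on C57BL/6 and 1.29 to 2.07 on MyD88-null arrays. Of the 8 macrophage markers 4 were lower and 4 higher, Cd14 passed with the block (log2 -0.99, adjusted p = 0.0350), and the ranges of the summed level overlapped, at 9.13 to 9.86 and 9.31 to 10.33. Of the 10 mesothelial and fibroblast markers 7 were lower, with a median of -0.27, and Pdgfra passed with the block (log2 -2.33, adjusted p = 0.00586); the summed level overlapped. The 5 T cell markers went the other way, 4 of them higher, with a median of 0.11. The part of these markers in the differences of Gclm, Slc7a11 and Sod2 was not tested.

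**Figure D4:**
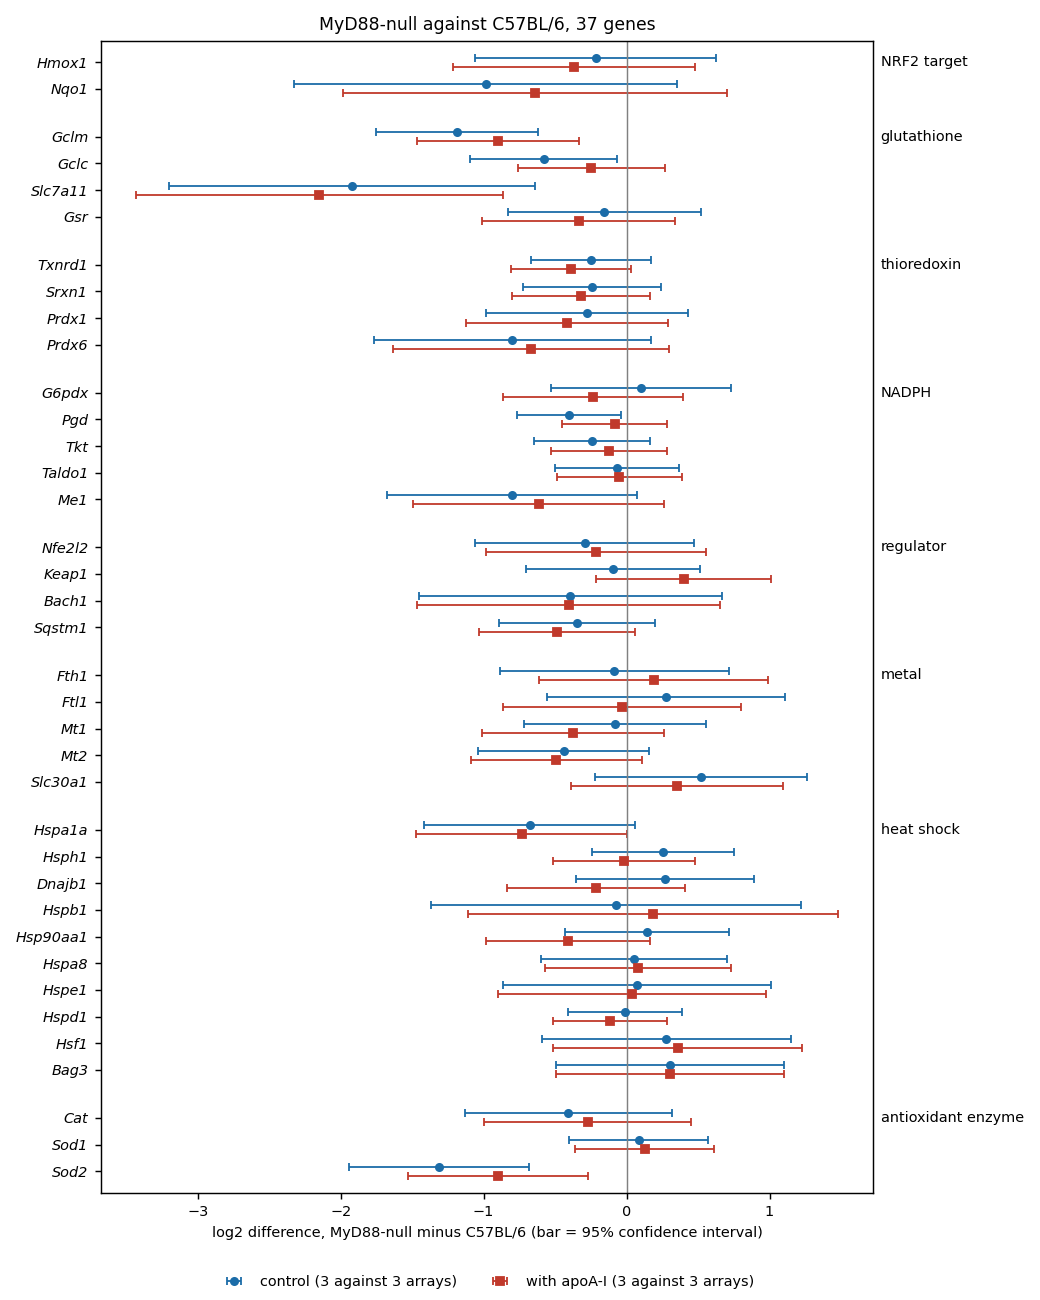
Log2 difference between genotypes (x axis, MyD88-null minus C57BL/6) for the 37 genes, grouped by role; blue circles are control cells and red squares cells with apoA-I, 3 against 3 arrays each, and bars are 95% confidence intervals. Points lie left of 0 for most NRF2 pathway genes, farthest for Slc7a11 (-1.92 and -2.15), and on both sides of it for the heat shock genes.

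Other genes of these pathways were counted from lists of known members. Of 26 further NRF2 pathway genes 25 were measured, and 1 passed: Maff, which encodes a small MAF partner of NRF2, rose by 3.15 (SE 0.21, adjusted p = 6.51e-05) in C57BL/6 cells and by 3.51 (SE 0.21, adjusted p = 4.53e-05) in MyD88-null cells on the log2 scale, and was lower in MyD88-null than in C57BL/6 controls by 1.48 (adjusted p = 0.0397). The median of these 25 genes in the averaged response was 0.02. Of 16 further metal genes, all measured, none passed in any comparison. Of 30 further chaperone genes 29 were measured, and Dnajb4, an Hsp40 family member, rose by 0.84 (SE 0.18, adjusted p = 0.0321) in the average. In the average, where Maff passed too (log2 3.33), 3.15% of all genes were called, so 1 gene of 25 or of 29 is near that share. For the Maff calls given above, the shares of all genes were lower. They were 0.830% in the C57BL/6 response, 1.14% in the MyD88-null response and 0.0956% between the controls.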

How the data were processed

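The deposited array files hold Cy3 spot intensity values that the authors extracted with Feature Extraction software (9.5 in the submitters' processing notes, 9.5.1.1 or 9.5.3.1 in the headers), background-corrected within each array and not scaled between arrays. Probe positions are those of build mm7, per the file headers. From them, log2 processed signals were centred on the 75th percentile of their array, and probes well above background throughout 1 or more of the groups were kept (24350 of 41174 probes). The probe with the highest mean stood for a gene. Limma 3.58.1 in R 4.3.3 fitted 4 group means over 12 arrays (8 residual and 2.16 prior degrees of freedom), with Benjamini-Hochberg adjustment over 16743 genes and a threshold of 0.05; p-values are two-sided, and the number of arrays limits the precision. An averaged difference is the mean of both genotypes' (or both treatments') differences. The fit was checked on simulated arrays with independent noise, so the check does not cover variation that arrays of an experiment or slide share.

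Replicate numbers mark shared experiments, as the design text says that each experiment gave 1 array per group. All 18 pairs of arrays with the same number deviated from their group means together (correlations 0.296 to 0.859, median 0.611). The 36 other pairs had a median of -0.40, with 6 above 0.1 and up to 0.55. Deviations from a group mean cancel out, so positive same-number correlations force negative ones elsewhere, and the -0.40 is no separate evidence. The blocked fit adds the replicate number to the model. The authors' deposited value table, which follows log10 intensity with column medians of 1.82 to 1.87, served as an alternative; its normalization and centring stay unknown. Promoter windows are RefSeq sequences of GRCm38.p6; mm7 exon annotation was not used here. Per-array values were given for genes called in any comparison, for a list of 23 genes and for the 5 lowest p-values of each comparison. The members and lists were chosen with earlier results of these data known.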

Additional observations from a re-analysis of the deposited data

How the results depend on the processing

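The counts of genes called depended on how shared variation between arrays was modelled. In the order C57BL/6 response, MyD88-null response, averaged response and averaged genotype difference, the main counts of 0, 1, 4 and 0 became 4, 4, 8 and 3 with the replicate block, 5, 4, 8 and 3 with the slide as a random block, and 6, 2, 7 and 2 with array weights, which also called 2 genes between control cells. With the scan day as a block the first 3 became 4, 2 and 7, and the genotype average stayed at 0. With a trend in the variance prior the counts were 2, 3 and 2 for both single responses and the genotype average. With the mean over a gene's probes they were 1, 2 and 2. Array median scaling left 0 genes in the MyD88-null and the averaged response. The MyD88-null response also had 0 calls with no filter on dim probes and with only the compared groups in the fit. It had 0 as well without both arrays of conflicting description, which left 1 call in the average. With every probe on its own it had 2 calls, Sod2 and Slc7a11. The Slc7a11 call came from the AK089283 probe, which was well above background on 1 of 3 MyD88-null control arrays, so that change was not measured exactly. The genotype average had 1 call with every probe on its own and with the stricter background filter. Leaving out 1 array at a time gave 0 to 1 calls in the C57BL/6 response, 0 to 1 in the MyD88-null response and 0 to 1 in the genotype average. The replicate block changed no other call, and the cause of these changes was not tested. Of the 259 results for a gene in a comparison, 233 were called under none of the 27 settings, and no called value changed its direction. Counts over all genes moved too: in the same order as above, 139, 191, 527 and 44 became 569, 682, 1931 and 356 with the replicate block, 755, 659, 1893 and 200 with the slide and 760, 382, 1505 and 93 with array weights, and array median scaling left 206 in the averaged response.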

Other observations

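With the replicate block, 5 further genes of the pathway lists passed in the averaged response to apoA-I besides Maff and Dnajb4. They were chosen after their values were seen, and 11.5% of all genes passed in that fit. Slc39a14, which encodes the metal importer ZIP14, was higher by 1.44 on the log2 scale (SE 0.35, adjusted p = 0.0559 without the block and 0.000296 with it) and lower in MyD88-null than in C57BL/6 cells by 1.31 averaged over treatments (adjusted p = 0.266 and 0.00254). Slc40a1, the iron exporter ferroportin, differed by -0.96 (SE 0.24, adjusted p = 0.0681 and 0.0151). Idh1, a cytosolic source of NADPH, differed by -0.65 (adjusted p = 0.191 and 0.0403). Among chaperones, the Hsp70 and Hsp90 cochaperone gene Stip1 differed by 0.79 (adjusted p = 0.148 and 0.00254) and the mitochondrial Hsp70 gene Hspa9 by 0.39 (adjusted p = 0.293 and 0.0248).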
